A study of Mus musculus with 6 samples.

Results

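Bone morphogenetic proteins (BMPs) and their receptors were examined in the proximal incisor of control and *Arid1b* mutant mice through 10 genes: the ligands *Bmp2*, *Bmp3*, *Bmp4*, *Bmp5*, *Bmp6* and *Bmp7*, the type I receptors *Bmpr1a*, *Bmpr1b* and *Acvrl1*, and the type II receptor *Bmpr2*. They were picked out by gene name, with earlier results of these data known, and all 10 were found among the 19270 genes of the deposited table. RNA was sequenced in 3 control and 3 mutant libraries of incisor tissue from mice given tamoxifen at 1 month of age and collected 4 days after induction. The labels name the tissue as incisor, the methods describe dissected proximal mesenchyme, and no source used here says whether each library came from 1 mouse. The mutants were *Gli1-CreER;Arid1b fl/fl*, in which tamoxifen activates a Cre recombinase in cells that express *Gli1*, and these cells and their progeny then lose the floxed *Arid1b* alleles. The controls also received tamoxifen; the labels call them wild type, whereas the methods describe *Arid1b fl/fl* mice, which would share the floxed alleles with the mutants. If the controls carried no CreER, the presence of CreER and the loss of *Arid1b* cannot be told apart in this comparison. In this Cre line the recombinase is inserted at the *Gli1* locus. Since *Gli1* is active in incisor epithelium as well as mesenchyme, recombination was not limited to the mesenchyme.

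BMPs are secreted dimers of the TGF-β superfamily. They bring type I and type II serine/threonine kinase receptors together at the cell surface, and the type I receptor then phosphorylates SMAD proteins that enter the nucleus and act on target genes such as those of the Id and Msx families. In the tooth, BMP signals pass between epithelium and mesenchyme and take part in the differentiation of both odontoblasts, which make dentin, and ameloblasts, which make enamel.

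The values are the authors' means of a normalized signal over the 3 libraries of each group. They carry no SD here, since only group means were used here, and no test between the groups was run except for *Bmpr1b*. A ratio of the means over 1.5 in either direction is used below as a measure of size and not of significance. The upper quartile of the signal was 44.57 to 44.58 in all 6 libraries, and each library was estimated to hold 37123643 to 49594469 reads on these genes. On that estimate 9 of the 10 genes had about 1019 to 18063 reads per library, whereas *Bmpr1b* was close to the limit of detection.

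The targeted gene *Arid1b* had a control mean of 97.6 and a mutant mean of 38.0. *Gli1* itself was 106.4 in the controls and 46.1 in the mutants. The Y-linked *Ddx3y* was at the lowest value of the group in the controls and at 65.3 in the mutants, and *Xist* was 3368 in the controls against 813.8 in the mutants, so that sex and genotype cannot be told apart in any value below. The sum of 16 listed markers of dental epithelium was 2265 in controls against 11124 in mutants, so that RNA of enamel epithelium was present in both groups despite the dissection of mesenchyme. The sum of 6 odontoblast markers, led by *Col1a1* and *Dspp*, was 27578 in controls and 22182 in mutants.

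Per kilobase of exon, the highest and the lowest receptor were *Bmpr1a* and *Bmpr1b*, type I receptors of similar coding length (1596 and 1506 bases). By coding length *Bmpr1a* and *Bmpr2* were nearly level in the controls, at 45.5% and 45.4% of the receptor sum, and *Bmpr1b* was again lowest. Because of the order per kilobase of exon, the 250 bases before the start sites of *Bmpr1a* and *Bmpr1b* are shown. The sequences come from the RefSeq annotation of GRCm38.p6 and run 5′ to 3′ on the strand of the gene (both genes lie on the minus strand). Each CpG dinucleotide (the letters CG, which read the same on both strands) is in capitals. The window of *Bmpr1a* is chr14:34502547-34502796, and that of *Bmpr1b* is chr3:141982265-141982514, the first of its 3 listed start sites. None of these 3 covers the outermost start of *Bmpr1b* in GENCODE, which lies 187 kb upstream of the window shown, whereas the window of *Bmpr1a* lies 0.545 kb inside its outermost start.
*Bmpr1a*: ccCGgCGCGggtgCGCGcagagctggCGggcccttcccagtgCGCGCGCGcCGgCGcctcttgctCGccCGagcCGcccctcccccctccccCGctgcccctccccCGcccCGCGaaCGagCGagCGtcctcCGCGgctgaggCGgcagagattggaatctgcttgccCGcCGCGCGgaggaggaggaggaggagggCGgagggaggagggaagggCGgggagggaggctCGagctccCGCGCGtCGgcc
*Bmpr1b*: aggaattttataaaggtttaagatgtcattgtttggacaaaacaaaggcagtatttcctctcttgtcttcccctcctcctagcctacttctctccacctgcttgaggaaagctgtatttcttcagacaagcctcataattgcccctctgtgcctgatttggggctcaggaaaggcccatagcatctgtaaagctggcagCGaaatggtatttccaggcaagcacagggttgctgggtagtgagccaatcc
The *Bmpr1a* window held 36 CpG dinucleotides and 78.8% G or C, and 2.58% of 32851 promoter windows of this length held as many or more. The *Bmpr1b* window held 1 and 46.8% G or C, and 18.8% of windows held as few or fewer. Its other 2 listed start sites held 5 each, and the outermost start was not analysed here. Among the other genes with an entry, the count was 22 for *Bmp6* and *Bmpr2*, 11 for *Bmp4* and 4 for *Bmp5*; *Bmp2*, *Bmp3*, *Bmp7* and *Acvrl1* had none. For comparison, 12719 genes of the table had an entry, with a median of 15. Among these, the median was 19 over the 1610 whose mean reached 100 and 6 over the 1807 whose mean stayed under 1. Over all 32851 windows it was also 6. *Bmpr2* and *Bmpr1a*, with 22 and 36, were among the genes whose mean reached 100, and *Bmpr1b* was among those under 1. The part of CpG content in the levels of these receptors was not tested.

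Of the 6 ligands, *Bmp3* alone had a mean more than 1.5-fold different between the groups. BMP3 is an atypical member of the family that opposes the activity of osteogenic BMPs and is abundant in bone. The mean of *Bmp3* (chromosome 5, 98854415 to 98884396 on GRCm38, 3 merged exons) was 30.8 in the controls and 98.4 in the mutants. The mutant mean was therefore 3.19-fold higher, a log2 ratio of 1.67. In the 10311 genes whose mean over both groups reached 10, 26 had a higher ratio than *Bmp3*. The means do not show how the 3 mutant libraries shared this difference: 1 library at 233.5 with the other 2 at the control mean would give the same mutant mean.

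**Figure D1:**
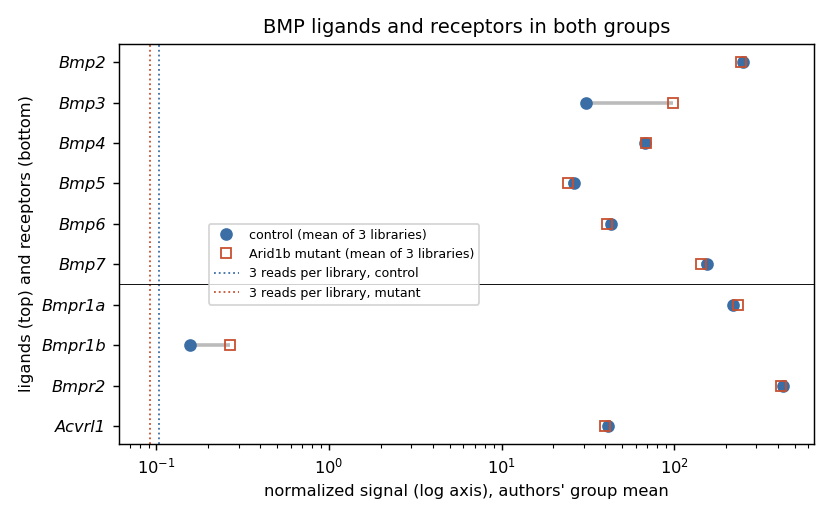
Authors' mean normalized signal of each BMP ligand (top) and receptor (bottom) on a log axis, with controls as filled circles, mutants as open squares and dotted lines at the value of 3 reads in every library of a group. The markers of 8 genes nearly coincide, *Bmp3* is separated (30.8 and 98.4), and *Bmpr1b* lies near the dotted lines (0.157 and 0.267).

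*Bmp2* and *Bmp4*, closely related ligands that act in tooth development, had nearly equal means in both groups. *Bmp2* (chromosome 2, 133552159 to 133562885) was 249.1 in the controls and 243.3 in the mutants. *Bmp4* (chromosome 14, 46383520 to 46390669) was 67.6 in the controls and 68.3 in the mutants. Their log2 ratios were -0.034 and 0.015, and the sign for *Bmp2* turned to 0.026 when the libraries were scaled to equal totals. Per kilobase of exon, *Bmp2* was 2.33 times the level of *Bmp4* in the controls and 2.25 times in the mutants.

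*Bmp5*, *Bmp6* and *Bmp7* form another subgroup of related ligands, known for roles in cartilage, in iron balance and in kidney and eye development. All 3 had slightly lower means in the mutants, also with libraries scaled to equal totals. *Bmp7* (chromosome 2, 172868012 to 172940321) was 155.2 in the controls and 142.8 in the mutants, a log2 ratio of -0.12. *Bmp5* (chromosome 9, 75775364 to 75900310) was 26.4 in the controls and 24.2 in the mutants, also -0.12. *Bmp6* (chromosome 13, 38345107 to 38500302) was 42.9 in the controls and 40.9 in the mutants, a log2 ratio of -0.067. Exons of 5 of the 10 genes share bases with a gene on the opposite strand. This overlap was 1878 bases for *Bmp5* (*Gm26903*), 290 for *Bmpr1a* (*Gm17110*), 224 for *Bmp6* (*Txndc5*), 127 for *Acvrl1* (*Gm16031*) and 89 for *Bmp4* (*Gm15217*). Whether reads were counted by strand is not given in the sources used here, so the values of these 5 genes are uncertain to that extent.

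The 3 receptors well above the limit of detection had similar means in both groups. *Bmpr2* (chromosome 1, 59763400 to 59879014), the type II receptor specific to BMPs, was 426.7 in the controls and 416.8 in the mutants, a log2 ratio of -0.034. *Bmpr1a* (chromosome 14, 34410734 to 34503341), the broadly expressed type I receptor, was 219.2 in the controls and 233.6 in the mutants, a log2 ratio of 0.092. *Acvrl1* (chromosome 15, 101128522 to 101145336), a type I receptor of endothelial cells, was 41.2 in the controls and 39.9 in the mutants, a log2 ratio of -0.045. Scaled to equal totals, *Bmpr2* and *Acvrl1* changed sign, to 0.027 and 0.016. The sum of 8 endothelial markers was 377.8 in the controls and 382.7 in the mutants, so that neither the receptor nor the markers differed by more than 1.5-fold. In whole tissue a change in the number of cells of a type and in the RNA per cell cannot be told apart.

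*Bmpr1b* (chromosome 3, 141837136 to 142169425), a type I receptor known from cartilage and limb development, was far below the other 9 genes, with a control mean of 0.157 and a mutant mean of 0.267. A gene with 3 reads in every library would be at 0.103 in the controls and 0.0923 in the mutants. At this level the reads of each library could be worked out from the group mean, because the value of 1 read differs between libraries. Of 256 combinations of whole reads within about 1 read of the control mean, 1 gave that mean within the rounding of the library values, and of 1288 combinations for the mutants, 1 did. By this inference the control libraries 1, 2 and 3 held 1, 12 and 2 reads of *Bmpr1b*, and the mutant libraries 1, 2 and 3 held 7, 13 and 11. The control libraries spanned the whole range, and control library 2 lay above every mutant library in normalized signal.

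In normalized signal *Bmpr1b* was 0.157 ± 0.163 (SD, n = 3) in the controls and 0.267 ± 0.0994 (SD, n = 3) in the mutants. The ratio of the means was 1.70, and their difference of 0.110 was smaller than the SD of the controls. An exact two-sided permutation test of the difference in means between these inferred libraries gave p = 0.40. The smallest value that 3 against 3 libraries can give in this test is 0.10. In all, 15 reads were inferred in the controls and 31 in the mutants. Without control library 2 the control mean was 0.0635 and the ratio 4.21 (exact two-sided permutation p = 0.20, the smallest that 2 against 3 libraries can give), and without control library 1 or 3, or mutant library 2, the ratio was 1.28, 1.35 or 1.49 and no longer past 1.5. The inference rests on whole reads, which were recovered for 60.9% of 440 low control means and 60.2% of 319 low mutant means, whereas for the other low means no combination of whole reads matched.

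**Figure D2:**
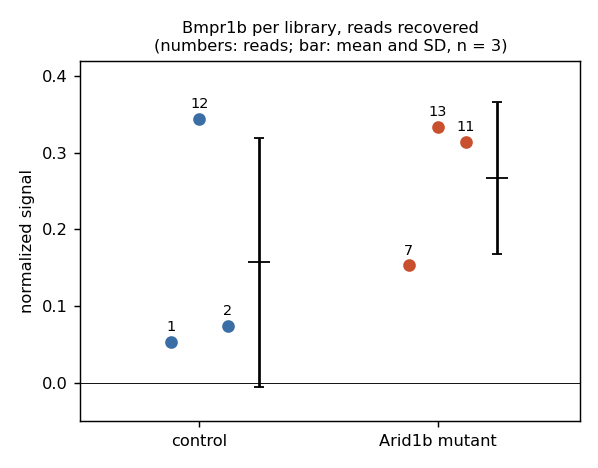
Normalized signal of *Bmpr1b* in each library as inferred from the group means, with the number of reads above each point and the mean and SD of 3 libraries as a bar. Control libraries with 1 and 2 reads lie below all mutant libraries, and the control library with 12 reads lies above all of them.

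Counted together, 2 of the 10 genes (*Bmp3* and *Bmpr1b*) had a mean more than 1.5-fold higher in the mutants, against 7.37% of all 19270 genes, and none was more than 1.5-fold lower, against 5.8%. In either direction this was 2 of 10, against 13.2%. When only genes whose mean reached 10 were counted, 1 of 9 was higher, against 2.15% of 10311 genes, 0 of 9 were lower, against 0.912%, and 1 of 9 passed in either direction, against 3.06%. Of the 4 whose mean reached 100, 0 passed, against 1.94% in either direction. The remaining 8 genes had log2 ratios from -0.12 to 0.09, differences of at most 8.22%. The lower and upper quartiles of the 10311 genes were -0.085 and 0.083. The median log2 ratio was -0.03 over the 10 genes and 0.0022 over all genes. In the means as deposited 4 genes were higher and 6 lower in the mutants, and with equal totals 7 were higher and 3 lower, as *Bmp2*, *Bmpr2* and *Acvrl1* changed sign.

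**Figure D3:**
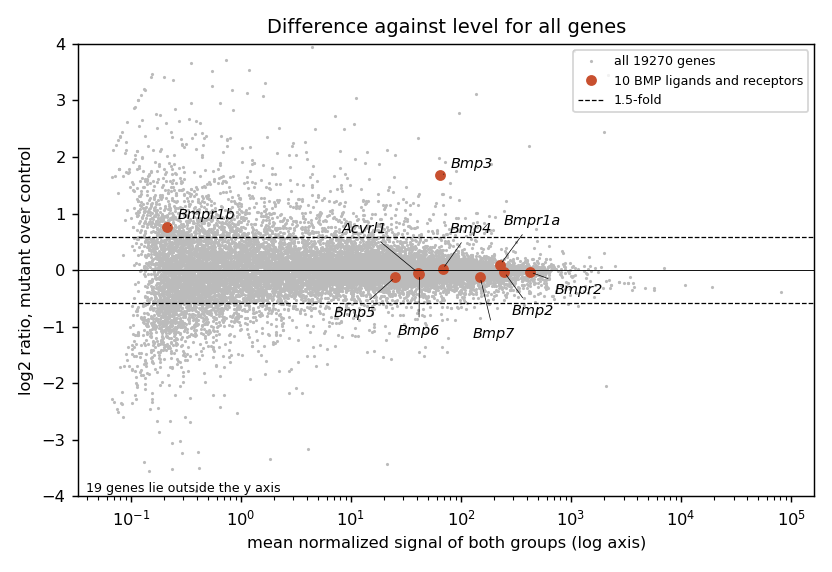
Log2 ratio of mutant over control against the mean of both groups (log axis) for all 19270 genes in grey and the 10 BMP ligands and receptors in red, with dashed lines at 1.5-fold. Low genes scatter widely and *Bmpr1b* (0.77) lies among them, whereas *Bmp3* (1.67) stands clear of the narrow band of genes at its level.

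Levels of different genes were compared per kilobase of merged exon length. Among the ligands, *Bmp2* was highest in both groups, at 43.7% of the summed ligand level in the controls and 41.7% in the mutants. *Bmp7* followed with 24.1% and 21.6%, and *Bmp4* with 18.7% and 18.5%. *Bmp3* made up 2.59% of the sum in the controls, the smallest share by exon length though not by coding length, and 8.10% in the mutants, above *Bmp5* (3.66%) and *Bmp6* (6.39%). The summed ligand level was 160.5 per kilobase in the controls and 164.2 in the mutants. Without *Bmp3* it was 156.3 and 150.9.

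The receptor side was dominated by *Bmpr1a* and *Bmpr2*. *Bmpr1a* made up 50.8% of the summed receptor level per kilobase in the controls and 53.0% in the mutants, *Bmpr2* 34.9% and 33.4%, and *Acvrl1* 14.2% and 13.5%. *Bmpr1b* made up 0.0388% and 0.0646%, and per kilobase *Bmpr1a* was 1310 times higher in the controls and 821 times higher in the mutants. With control library 2 left out of the *Bmpr1b* mean alone, the control value was 3242, since *Bmpr1a* has no value per library here. That library held most of the *Bmpr1b* reads of its group. In order of level per kilobase, the controls ranked *Bmp2*, *Bmp7*, *Bmpr1a*, *Bmp4*, *Bmpr2*, *Bmp6*, *Acvrl1*, *Bmp5*, *Bmp3* and *Bmpr1b*. In the mutants *Bmpr1a* stood above *Bmp7* by 36.8 to 35.5, and *Bmp3* stood above *Bmp6*, *Acvrl1* and *Bmp5*. Which neighbours in these orders differ beyond their spread is unknown, since the means carry none. The shares depend on the length used: with coding length in place of exon length *Bmp3* was 4.80% in the controls, above *Bmp5* with 4.25%, and 14.3% in the mutants, because *Bmp3* has 7398 bases of annotated exon and 1410 of coding sequence. By coding length *Bmpr1a* and *Bmpr2* were 45.5% and 45.4% of the receptor sum in the controls and 47.7% and 43.6% in the mutants.

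**Figure D4:**
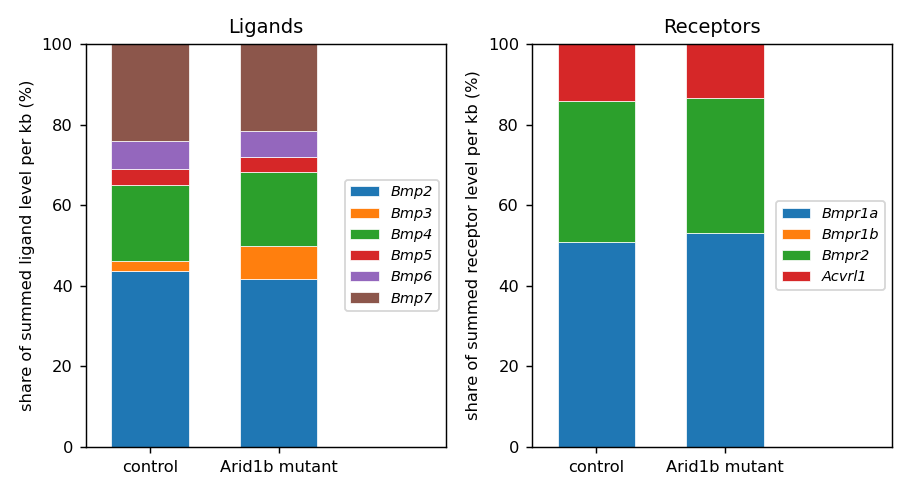
Share of each gene in the summed level per kilobase of exon of the 6 ligands (left) and the 4 receptors (right), in percent, for the authors' means of controls and mutants. *Bmp3* widens from 2.59% to 8.10% of the ligands, and *Bmpr1b* is too small to be seen among the receptors.

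Other genes of the pathway were examined in 5 lists with 58 genes in the table, of which 5 were more than 1.5-fold higher in the mutants, against 7.37% of all genes, and 2 more than 1.5-fold lower, against 5.8%. Of the 45 whose mean reached 10, 0 were higher and 1 was lower, against 2.15% and 0.912% of all genes at that level. That gene was *Chrdl1*, which encodes a secreted BMP antagonist. It was 29.5 in the controls and 12.5 in the mutants, so that the control mean was 2.36-fold higher. Like *Bmp3*, it is a secreted protein known to limit BMP activity, but its mean was lower where that of *Bmp3* was higher.

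Among the other ligands, 7 of 10 listed genes were in the table, and *Bmp8a*, the most abundant, was 19.9 in the controls and 20.6 in the mutants. *Gdf6* was 4.67 and 7.12, and *Gdf5*, a ligand of joint formation, was 0.685 and 2.49, both more than 1.5-fold higher at low levels. Among 7 other receptors and co-receptors, the pseudoreceptor *Bambi* was 310.0 in the controls and 311.3 in the mutants. The endothelial co-receptor *Eng* was 85.5 and 86.7. *Acvr2b*, the type II receptor that BMP3 binds, was 6.53 and 6.41. *Rgma*, a co-receptor, was the only one of these 7 past 1.5-fold, at 4.93 and 8.31.

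Of 18 extracellular modulators, *Bmper* and *Tll1* were more than 1.5-fold higher and *Chrdl1* and *Sost* more than 1.5-fold lower, and all of these except *Chrdl1* had a mean under 10. The most abundant, *Fstl1* and *Twsg1*, had log2 ratios of -0.19 and -0.05. None of 14 signal transducers passed 1.5-fold, and *Smad5*, which relays BMP signals, was 238.0 in the controls and 237.6 in the mutants, with *Xiap* at a log2 ratio of 0.03. None of 12 target genes passed it either. Of these 12, 9 were lower in the mutants with a median log2 ratio of -0.11, and 8 with a median of -0.049 when libraries were scaled to equal totals. All 12 had a mean of at least 10. The 10311 genes at that level had a median of 0.00066 as deposited, so that lower and higher genes were near equal in number. Their lower quartile was -0.085. Scaling to equal totals shifted the median of all genes by 0.06. What the 12 target genes say about BMP signalling was not tested. The most abundant of the 12, *Id3*, an inhibitor of differentiation, and *Hey1*, had log2 ratios of -0.32 and -0.09. The 3 that were higher in the means as deposited were *Runx2*, *Hes1* and *Id4*, at 0.24, 0.15 and 0.10.

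**Figure D5:**
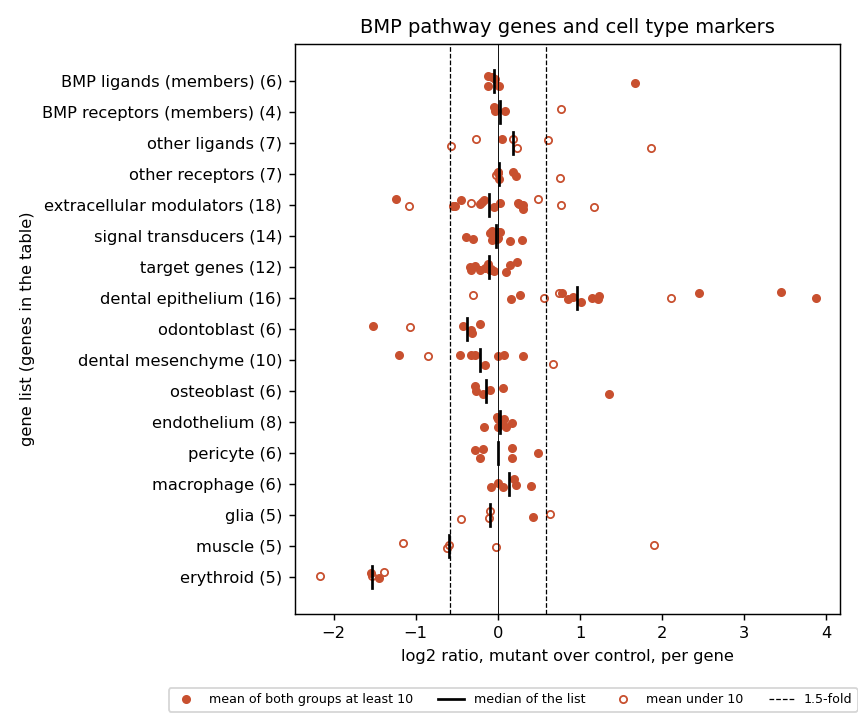
Log2 ratio of mutant over control for each gene of the BMP lists and of the cell type marker lists, filled where the mean of both groups is at least 10, with the list median as a bar and dashed lines at 1.5-fold. The medians of the BMP lists run from -0.11 (target genes) to 0.18 (other ligands). The dental epithelium list lies mostly to the right (median 0.97) and the erythroid list to the left (median -1.53).

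Markers of other cell types also differed in mean between the groups. Of the 16 markers of dental epithelium, 15 had a higher mean in the mutants, 12 of them by more than 1.5-fold, with a median log2 ratio of 0.97. The most abundant were the enamel matrix genes *Amelx* (361.9 in the controls and 3946 in the mutants), *Ambn* (617.4 and 3360) and *Enam* (135.8 and 1983), which were 10.9-fold, 5.44-fold and 14.6-fold higher. Their part in the difference of *Bmp3* was not tested.

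All 5 erythroid markers were lower in the mutants, with *Hbb-bs*, *Hba-a2* and *Hba-a1* at log2 ratios of -1.54, -1.45 and -1.39. All 6 odontoblast markers were lower too, with a median of -0.37 and with *Col1a1*, *Dspp* and *Phex*, the most abundant, at -0.31, -0.32 and -0.22. Of the 6, 2 passed 1.5-fold. These were *Dmp1*, with 68.1 in the controls and 23.7 in the mutants (log2 ratio -1.52), and the low *Ifitm5*, with 3.27 and 1.56 (-1.06). The endothelial list (*Cdh5*, *Kdr* and *Pecam1* at -0.01, -0.16 and 0.17) and the pericyte list (*Rgs5*, *Acta2* and *Notch3* at -0.27, 0.49 and -0.22) had medians of 0.03 and 0.0019. The macrophage list had a median of 0.13 (*Lyz2*, *Mrc1* and *Csf1r* at 0.07, -0.08 and 0.20), and the osteoblast list one of -0.14 (*Bglap*, *Alpl* and *Bglap2* at -0.27, -0.28 and -0.18). The only osteoblast marker past 1.5-fold was *Spp1*, which encodes osteopontin, with 38.9 in the controls and 99.2 in the mutants, a log2 ratio of 1.35. The dental mesenchyme list, which includes *Gli1*, had a median of -0.21, and its most abundant genes *Col3a1*, *Vim* and *Dcn* were at 0.31, -0.28 and -0.45. Glial and muscle markers were low, with *Mbp* at 0.43 and *Acta1*, *Myh4* and *Tnnt3* at -1.16, 1.90 and -0.62 and with muscle means all under 3. The part of all these cell types in the values of the BMP genes was not tested.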

How the data were processed

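RNA-seq of 3 control and 3 *Arid1b* mutant incisor libraries was used. Reads were trimmed and mapped to mm10 by the authors, who ran their comparison in Partek Flow; the submitters' processing notes list TopHat2 2.0.8. The read counter and annotation are not given in the sources used here. The authors deposited a normalized signal as a mean per gene and group, not scaled by gene length, and a summary of that signal per library. The 4 columns of the authors' own comparison (p-value, FDR, ratio and fold change) and a table filtered on them were not used, nor were 4 other columns of the library summary.

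From the 2 group means the ratio, its log2 value, counts past 1.5-fold and levels per kilobase were computed, with exon unions and coding lengths from GENCODE vM21 (GRCm38, the assembly of mm10). The lowest value of a library was read as 1 unit per read plus 1, and depth and the *Bmpr1b* reads were inferred from it. Counting and recovery of reads were also run on simulated data, as a check of the code. For the recovery these data were built from whole reads and the same lowest values. They therefore cannot show whether the deposited means are made of whole reads.

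The genes named were all 10 members, the targeted gene, listed pathway genes past 1.5-fold with a mean of at least 10, and the most abundant genes of each list, of which 2 are not reported here; others, among them *Xist*, *Ddx3y*, *Gdf5*, *Rgma*, *Bmper*, *Tll1*, *Sost*, *Acvr2b*, *Spp1*, *Runx2*, *Hes1* and *Id4*, were chosen after their values were seen. The members and lists were chosen with earlier results of these data known. Alternatives were a pseudocount, scalings, filters, coding length and other folds. Tables were handled with pandas 2.3.3 and numpy 2.4.6 in Python 3.11.15, the permutation test with scipy 1.17.1 and plots with matplotlib 3.10.9.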

Additional observations from a re-analysis of the deposited data

How the results depend on the processing

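No paired analysis was possible because the deposited values are group means, and single libraries could be left out for *Bmpr1b* alone, whose log2 ratio then ranged from 0.35 to 2.07 (without control library 2). This was added after the data were seen. The coding length from a protein table was not used, and the longest coding length in GENCODE was added in its place after the data were seen. The difference in *Bmp3* rests on 2 means without a spread, and *Bmpr1b* on few reads.

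With 1 added to both means, 1 of the 10 genes was more than 1.5-fold higher (*Bmp3*), as 2.44% of all genes were, and 0.976% were lower. The muscle and erythroid medians were then -0.18 and -1.34. Scaled to equal totals, which shifted the median of all genes by 0.06, the log2 ratios were 0.026 for *Bmp2*, 1.74 for *Bmp3*, 0.075 for *Bmp4*, -0.0066 for *Bmp6*, -0.060 for *Bmp7*, 0.15 for *Bmpr1a*, 0.027 for *Bmpr2* and 0.016 for *Acvrl1*, and the endothelial and erythroid medians were 0.090 and -1.47. Centring on the median of all genes moved no value of the 10 genes beyond its counting error.

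With the limit at a ratio of 5 to 4, 13.6% of all genes were higher and 12.8% lower. Of the 58 listed pathway genes, 6 were then higher and 9 lower. At 2-fold the shares of all genes were 3.03% and 2.14%. At that limit 1 of the 10 genes was higher and 0 were lower, and of the 58 pathway genes 2 were higher and 2 lower. With a mean of at least 10, 1 of 9 genes was higher, 0 pathway genes were higher and 1 lower, and 2.15% and 0.912% of all genes were past the fold; the glial median was 0.43 from 1 gene. With a mean of at least 100, 0 of 4 genes and 0 pathway genes were past it in either direction, against 1.46% and 0.486% of all genes, since *Bmp3* and *Bmpr1b* fall below that level; the pericyte and macrophage medians were -0.27 and -0.0078.

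The mean in place of the median gave 0.21 over the 10 genes, and 0.10, -0.10 and -1.62 for the osteoblast, muscle and erythroid lists. By coding length *Bmp3* was 4.80% and 14.3% of the ligand sum in controls and mutants, *Bmp4* 12.1% and 11.5%, and *Acvrl1* 9.06% and 8.63% of the receptor sum. By that length 4 of the 10 genes kept their rank in the controls and 6 in the mutants.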

Other observations

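The genes of the table next to *Bmp3* on chromosome 5 were listed by position, after the values of *Bmp3* were seen. *Prkg2*, which encodes a cGMP-dependent protein kinase, lies 45.4 kb beyond the end of *Bmp3* and had a control mean of 2.82 and a mutant mean of 6.12, a log2 ratio of 1.12. *Rasgef1b*, 333 kb beyond it, was 7.68 in the controls and 13.5 in the mutants, a log2 ratio of 0.81. On the other side, *Mir703* and *Antxr2*, 379 kb and 823 kb away, had log2 ratios of 0.02 and -0.26. The 2 genes beyond the 3′ end of *Bmp3* were more than 1.5-fold higher in the mutants, as were 7.37% of all genes. Among genes whose mean over both groups reached 10, the share was 2.15%. *Rasgef1b* reached that level only through its mutant mean, since its control mean of 7.68 lay under 10. *Prkg2* did not reach it, and ratios of genes as low as *Prkg2* scatter widely. These 4 ratios are of authors' means without a spread, and no test was run on them.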
